A study of Mus musculus with 3 samples.

Results

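The Sprouty, Spred and DUSP feedback genes described here are 10 genes, Spry1, Spry2, Spry4, Spred1, Spred2, Dusp1, Dusp4, Dusp5, Dusp6 and Dusp10, of 18193 named genes on the array. They were chosen by family, with the signals of all 3 arrays and the differences between them already known, so their values are a description. All 26 probe sets that the array's annotation assigns to these genes alone were taken. A probe set is a group of short probes against 1 transcript. The cells are 4T1, a mouse mammary carcinoma cell line, measured on 3 Affymetrix Mouse Genome 430 2.0 arrays. In the co-culture condition, 4T1 cells were in contact with MSCs (commonly mesenchymal stem, or stromal, cells) for 1 week and were then isolated from the mixture. In the conditioned-medium condition they were kept for 1 week in medium conditioned by MSCs, and in the regular-medium condition they received neither, and its culture time is not stated. All conditions share the same cell line and its RPMI-based medium with serum. Where the MSCs came from, and how the 4T1 cells were isolated from them, is not stated.

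Growth factor receptors signal through RAS, RAF, MEK and the kinase ERK, and ERK activity induces genes whose products then restrain the same route. Sprouty and Spred proteins act upstream, between the receptor and RAF. Dual-specificity phosphatases (DUSPs, or MAP kinase phosphatases) act at the end, removing the activating phosphates from ERK or from the related stress kinases JNK and p38. In mammary epithelium this route carries signals of the EGF and FGF families, and transcripts of its feedback genes are often read as a record of recent MAP kinase activity. Transcript signals alone do not measure kinase activity, and none was measured here.

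Each condition has 1 array, so a difference compares 2 arrays, has no replicate error and was not tested. Signals are linear MAS5 values, and values below 42.4, the pooled 40th percentile, were set to that floor before taking log2. A gene is called measured when it reached 149.3, the pooled 60th percentile, on at least 1 array, and higher or lower when 2 signals differed at least 2-fold with the brighter one at 149.3 or more. For a gene with several probe sets, the one with the highest mean signal stood for it. As a gauge of measurement scatter, the 2 brightest probe sets of the same gene were compared over 3888 genes that were bright on all arrays. Their log2 differences disagreed by a median of 0.29 for co-culture against regular medium, with 90% of the genes within 0.86. For conditioned medium against regular medium the median disagreement was 0.13, with 90% within 0.39. Each disagreement carries the scatter of 2 probe sets. For a single probe set, 1 SD taken from these disagreements was 0.33 and 0.14 in the 2 comparisons. This scatter holds no variation between cultures.

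All 10 feedback genes were measured. In co-culture 9 of them had a higher signal than in regular medium, as did 56% of all genes compared, and Dusp1 had a lower one. Spry4 and Dusp4 were at least 2-fold higher and none was 2-fold lower, so 2 of 10 were called higher, beside 5.81% of the 9393 genes compared on these arrays and 2.76% called lower. Dusp10 and Dusp5 were also at least 1.5-fold higher, giving 4 of 10 beside 16.9% of all genes at that size, and none was 1.5-fold lower, beside 9.86%. The median log2 difference of the feedback genes was 0.46, with quartiles at 0.25 and 0.91, and that of all 9452 measured genes was 0.07. Spry4, Dusp4 and Dusp10 were the 3 members whose difference exceeded the 0.86 within which 90% of probe set pairs fell. Of all genes compared, 6.30% had a larger difference than Dusp10, the smallest of the 3. Spry4 was not bright on all arrays, unlike the genes behind that gauge. In conditioned medium no member was 2-fold or 1.5-fold away from regular medium.

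**Figure D1:**
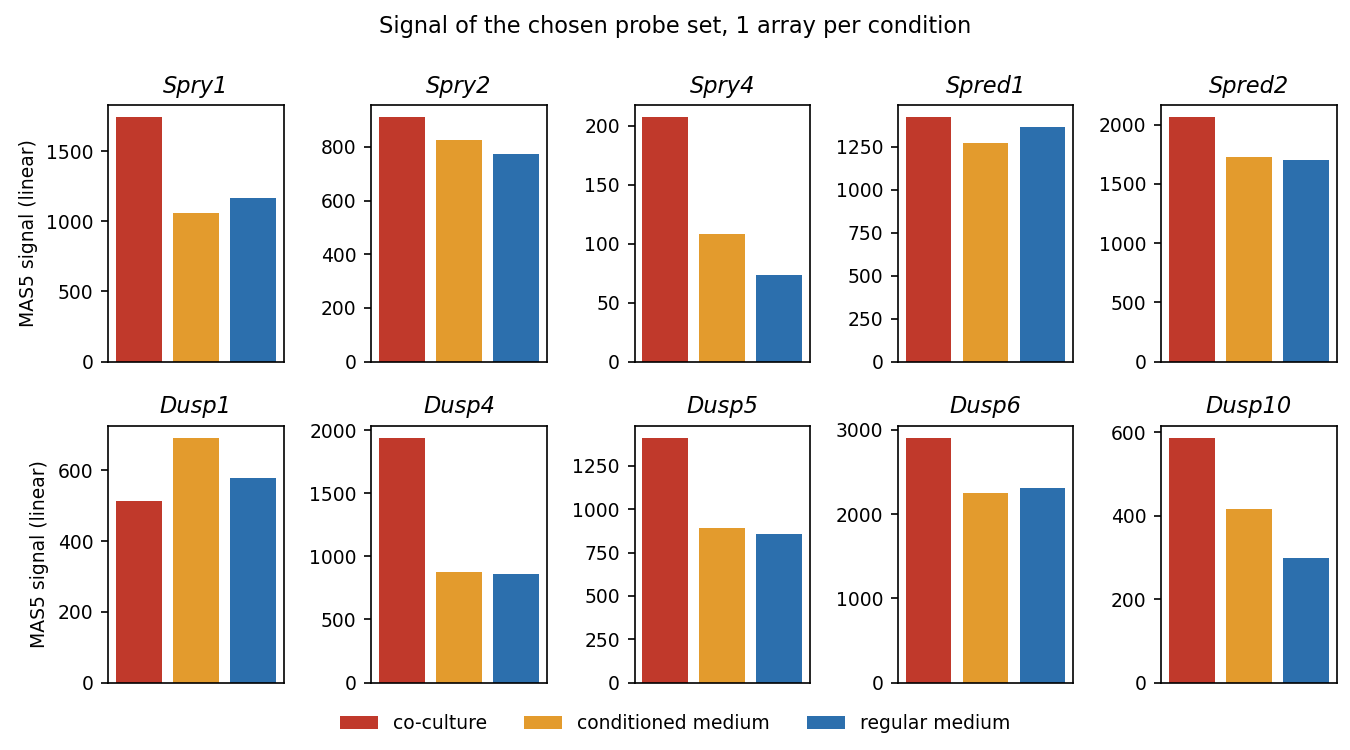
Linear MAS5 signal of the chosen probe set of each feedback gene, with 1 bar per array for co-culture, conditioned medium and regular medium and a separate axis from 0 in each panel. Co-culture has the highest bar in 9 of 10 panels, and Dusp1, with its lowest bar in co-culture at 514.5, is the exception.

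Among the Sproutys, intracellular inhibitors that receptor signalling itself induces, Spry4 differed most. Its chosen probe set, 1440867_at, read 207.2 in co-culture, 107.8 in conditioned medium and 73.3 in regular medium. The co-culture signal was 2.83-fold that of regular medium, a log2 difference of 1.5, and 2.11% of the genes compared had a larger one. Conditioned medium lay between the others, 1.47-fold above regular medium. These are dim signals, and only co-culture reached 149.3. With the floor raised to the pooled 60th percentile the log2 difference was 0.47 and Spry4 was no longer called. A further Spry4 probe set, 1445669_at, read 182.2 in co-culture, 73.1 in conditioned medium and 70.2 in regular medium, so it shared the co-culture difference, at 2.60-fold, but not the intermediate level in conditioned medium. The remaining probe sets of Spry4, 1422020_at and 1422021_at, stayed below the minimum, with signals of 6.3 and 15.5 in co-culture, and gave no measurable difference there.

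Spry1, which restrains receptor tyrosine kinase signalling in development, read 1741.6 in co-culture, 1060.1 in conditioned medium and 1164.6 in regular medium. Co-culture was above both other conditions, just short of 1.5-fold above regular medium, while conditioned medium was slightly below it with a log2 difference of -0.14. Spry2, a Sprouty that also binds the ubiquitin ligase CBL, read 910.9 in co-culture, 827.2 in conditioned medium and 774.1 in regular medium, a narrow spread with a log2 difference of 0.23 for co-culture. A second Spry2 probe set, 1421656_at, lay near the floor on all arrays, at 45.8 in co-culture, 26.3 in conditioned medium and 44.6 in regular medium.

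Spred1 and Spred2 are membrane-linked relatives of the Sproutys, and Spred1 brings the RAS-inactivating protein neurofibromin to the membrane. The chosen probe set of Spred1, 1423160_at, was nearly level, with 1420.4 in co-culture, 1268.9 in conditioned medium and 1360.8 in regular medium, a log2 difference of 0.06 for co-culture. The 8 probe sets of this gene did not give the same answer. Of the 6 that reached the minimum, all were above regular medium in co-culture, by 1.04-fold to 2.06-fold. Probe set 1460116_s_at read 464.4 in co-culture, 307.3 in conditioned medium and 225.5 in regular medium, and 1452911_at read 262.8 in co-culture, 179 in conditioned medium and 134.7 in regular medium, 1.95-fold higher in co-culture. The size of the Spred1 difference thus depends on the probe set, and the chosen one gave the smallest value of the 6.

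For Spred2, the chosen probe set 1434403_at read 2061.6 in co-culture, 1727.5 in conditioned medium and 1697.8 in regular medium, 1.21-fold higher in co-culture. Its other bright probe sets lay on either side of this. Probe set 1436892_at read 834.6 in co-culture, 570.3 in conditioned medium and 562.6 in regular medium, 1.48-fold higher in co-culture. Probe set 1441415_at read 271.2 in co-culture, 303.5 in conditioned medium and 278.6 in regular medium, with co-culture the lowest. Over all members, 18 of the 26 probe sets reached the minimum, and 16 of these had a higher signal in co-culture than in regular medium. The exceptions were this Spred2 probe set and the single probe set of Dusp1. The 18 are not separate observations, since 6 belong to Spred1 and 3 to Spred2. In conditioned medium 14 of the 18 were above regular medium. The share over all bright probe sets was not computed, and 56% of all genes compared were higher in co-culture.

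**Figure D2:**
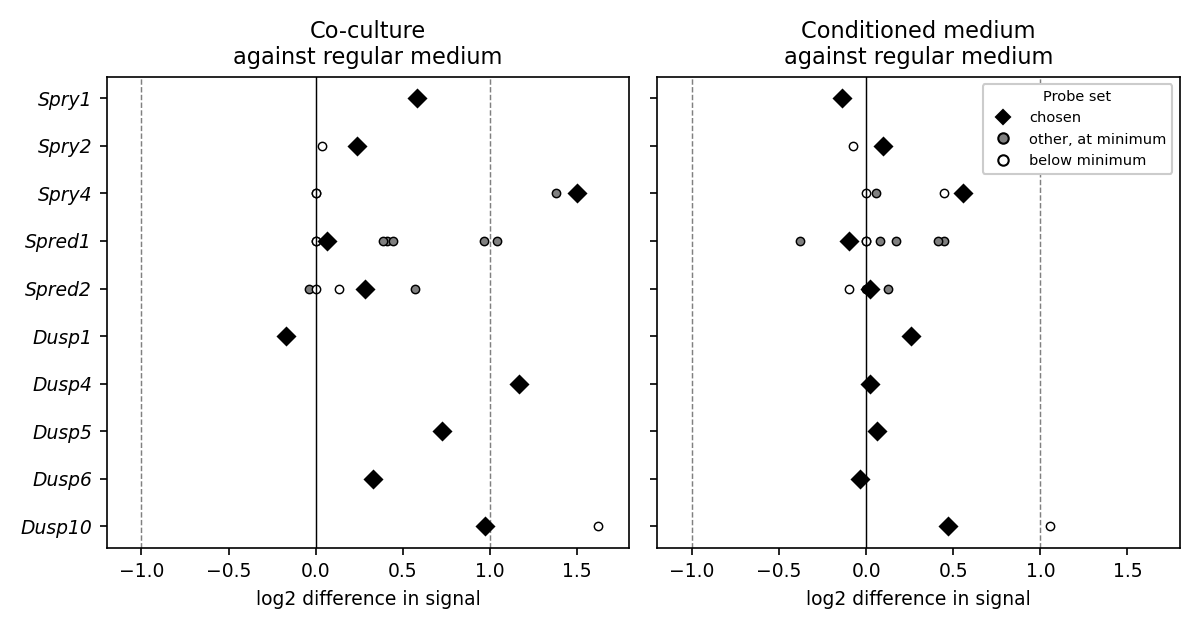
Log2 difference in signal against regular medium for every probe set of the feedback genes, co-culture on the left and conditioned medium on the right; diamonds are the chosen probe sets, grey circles others that reached 149.3 and open circles those that did not, and dashed lines mark 2-fold. The chosen probe sets of Spry4 and Dusp4 lie beyond the dashed line in co-culture, while the bright Spred1 probe sets spread from 0.06 to 1.04.

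Among the phosphatases, Dusp4, an inducible nuclear enzyme that acts on ERK and other MAP kinases, set co-culture apart from both media. Its single probe set read 1938.1 in co-culture, 877.4 in conditioned medium and 863.7 in regular medium. Co-culture was 2.24-fold above regular medium, a log2 difference of 1.17 that 4.13% of genes exceeded, and conditioned medium was within 0.02 of regular medium. Dusp5, a nuclear phosphatase specific for ERK, had the same order with a smaller step, at 1410.9 in co-culture, 894.2 in conditioned medium and 855.4 in regular medium. Co-culture was 1.65-fold above regular medium and conditioned medium 1.05-fold. Dusp6, the cytoplasmic ERK phosphatase and a widely used readout of ERK activity, read 2903 in co-culture, 2249.6 in conditioned medium and 2309.1 in regular medium. Its co-culture signal was 1.26-fold above regular medium, a log2 difference of 0.33. This is about 1 SD of a single probe set, also 0.33, and within the 0.86 that holds 90% of pairs.

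Dusp10, which acts on JNK and p38 rather than on ERK, differed in a graded way. It read 586.2 in co-culture, 414.9 in conditioned medium and 299.3 in regular medium. Co-culture was 1.96-fold above regular medium, just short of 2-fold, and conditioned medium was 1.39-fold above it, a log2 difference of 0.47. In conditioned medium only Spry4, at 0.56, and Dusp10 differed by more than the 0.39 within which 90% of probe set pairs fell. Of the genes compared there, 0.885% had a larger difference than Spry4 and 1.51% a larger one than Dusp10. The dimmer Dusp10 probe set, 1417163_at, had the same order, with 130.3 in co-culture, 88.1 in conditioned medium and 35.7 in regular medium, but did not reach the minimum. Dusp1, an immediate early gene whose nuclear product acts on p38, JNK and ERK, was the member that went the other way. It read 514.5 in co-culture, 691.2 in conditioned medium and 578.8 in regular medium, with a log2 difference of -0.17 for co-culture and 0.26 for conditioned medium. Among the chosen probe sets, co-culture was thus the lowest condition for Dusp1 alone. The -0.17 was smaller in size than the median probe set disagreement of 0.29.

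The RefSeq promoter table (GRCm38.p6) held 8 of the 10 members, not Spry4 or Dusp4. Shown here are the 250 bases before the annotated start of Dusp5 and Dusp10, which were higher in co-culture, and of Dusp1, which was not. They were picked because their differences have opposite signs, although that of Dusp1 was smaller than the median probe set disagreement. Dusp5 lies at chr19:53528895-53529144 on the plus strand, Dusp10 at chr1:184034131-184034380 on the plus strand and Dusp1 at chr17:26508473-26508722 on the minus strand. Capitals mark motif matches.
Dusp5: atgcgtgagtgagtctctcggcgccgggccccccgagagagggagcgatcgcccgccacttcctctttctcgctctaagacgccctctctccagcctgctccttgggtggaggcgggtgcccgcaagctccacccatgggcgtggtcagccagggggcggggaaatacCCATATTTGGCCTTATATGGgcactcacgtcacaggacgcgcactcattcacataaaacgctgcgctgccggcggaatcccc
Dusp10: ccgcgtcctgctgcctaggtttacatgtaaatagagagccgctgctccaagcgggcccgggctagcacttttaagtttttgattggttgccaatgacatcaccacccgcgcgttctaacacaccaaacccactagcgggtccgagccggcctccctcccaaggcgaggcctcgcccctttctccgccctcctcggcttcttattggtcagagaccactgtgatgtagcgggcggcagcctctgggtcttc
Dusp1: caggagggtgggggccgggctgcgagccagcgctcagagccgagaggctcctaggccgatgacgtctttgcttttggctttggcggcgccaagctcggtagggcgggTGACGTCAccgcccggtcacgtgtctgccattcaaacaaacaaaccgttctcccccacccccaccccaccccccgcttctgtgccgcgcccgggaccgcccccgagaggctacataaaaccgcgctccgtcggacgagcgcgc
Motifs of factors known to carry MAP kinase signals were searched on both strands in these 250 bases. They were the cAMP response element TGACGTCA, the AP-1 site TGACTCA, the ETS site CCGGAAG and the CArG box bound by serum response factor. In Dusp5 the capitals are 2 CArG boxes side by side without overlap, which begin 82 and 72 bases before the start, and 1.47% of the 32851 promoters in the table hold such a box. In Dusp1 they are a cAMP response element that begins 143 bases before the start, held by 1.55% of promoters. The AP-1 and ETS letters, found in 4.46% and 6.91% of promoters, were in none of the 8 windows, and Dusp10 held none of the 4 motifs. A match describes letters only, and its absence says nothing about the factor.

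When co-culture was set against conditioned medium, 9 of the 10 members were again higher, beside 56% of genes, and Dusp1 lower. This comparison shares the co-culture array with the one above, so it is not separate evidence. Dusp4 was the member past 2-fold, at 2.21-fold, giving 1 of 10 called higher beside 5.83% of 9350 genes, with 2.6% of genes called lower. Spry4 was 1.92-fold higher, Spry1 1.64-fold and Dusp5 1.58-fold, so 4 of 10 were 1.5-fold higher beside 16.9% of genes, and none was 1.5-fold lower beside 9.95%. Dusp10 was 1.41-fold higher, less than the 1.96-fold against regular medium since its conditioned-medium signal lay above that of regular medium. Dusp1 had a log2 difference of -0.43, a signal of 514.5 in co-culture against 691.2 in conditioned medium. The median over the 10 genes was 0.43, and over all measured genes 0.07.

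Conditioned medium against regular medium, which shares the regular-medium array, left the list near 0. The median log2 difference of the members was 0.04, against 0.01 for all measured genes, with 7 signals above regular medium and 3 below, beside 53.7% of all genes above. None of the 10 was called, beside 0.109% of 9152 genes called higher and 0.306% called lower, and none was 1.5-fold higher or lower, beside 0.754% and 1.46% of genes in those directions. Spry4, at 107.8 and 73.3, was below the signal minimum in both media, so it could not be called here at any fold. It is counted among the 7 members above regular medium but was not among the genes behind these shares. The lowest member was Spry1, at -0.14, and Spred1 followed at -0.10.

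Other genes of the pathway were read from lists chosen with earlier results known. Beside their counts, 5.81% of all genes compared were called higher in co-culture than in regular medium and 2.76% lower. Among the other dual-specificity phosphatases, 13 of 17 were measured, 2 were at least 2-fold higher in co-culture than in regular medium and none was lower, with a median log2 difference of 0.23. Dusp16, a phosphatase that acts mainly on JNK, read 3411.2 in co-culture, 940.4 in conditioned medium and 1244.9 in regular medium, 2.74-fold higher in co-culture. Dusp3, a small phosphatase that can act on ERK and JNK, read 2325.8 in co-culture, 978.8 in conditioned medium and 916.0 in regular medium, 2.54-fold higher, but another bright probe set of it had a log2 difference of -0.52. Of the other family members, Spred3 was 1.31-fold higher, with 154.6 against 118.2, and Spry3 was below the floor on all arrays.

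Of 12 other inhibitors of receptor tyrosine kinase signalling, 10 were measured, with a median of 0.23. None passed 2-fold, beside 5.81% of all genes compared called higher and 2.76% called lower. Errfi1, an inhibitor of EGF receptor kinases, was 1.15-fold higher in co-culture, with 5779.9 against 5015.9 in regular medium, although its bright probe sets ranged from -0.37 to 0.20. Lrig1, which promotes receptor breakdown, was 1.19-fold higher, and Rasa1, a RAS GTPase activator, had a log2 difference of -0.10 with bright probe sets from -0.55 to 0.33. The RAS to ERK cascade had 13 measured genes of 20 listed, and the other 7 were not analysed here. Gab1, a docking protein below growth factor receptors, was the 1 gene called there, 2.05-fold higher with 395.2 in co-culture against 192.4 in regular medium, and the list median was 0.20. The JNK and p38 list, with 13 measured of 15, had a median of 0.13. As in the cascade list, and beside 5.81% of all genes compared, 1 gene was called higher. This was Mapk11, encoding p38 beta, 2.12-fold higher with 347.8 against 164.0, while another bright probe set of it had -0.10. None of the 6 measured FGF and EGF family receptors and MET was called, and Met, Erbb3 and Erbb2 had log2 differences of -0.16, 0.58 and -0.04. Their median was 0.06, close to that of all genes. Another bright probe set of Met gave -1.42, and Fgfr3, named after its values were seen, had -0.87 with another bright probe set at -1.95.

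Transcripts known as outputs of ERK signalling, without the members, gave a mixed reading. Of 13 measured, 1 was higher and 1 lower by 2-fold in co-culture, beside 5.81% and 2.76% of all genes compared. The list had a median of 0.48 and an interquartile range of -0.25 to 0.60. Fos, an AP-1 subunit and immediate early gene, read 440.2 in co-culture, 120.0 in conditioned medium and 103.5 in regular medium, 4.25-fold higher. Plaur, the urokinase receptor, was 2.47-fold lower, with 890.9 in co-culture against 2196.5 in regular medium. Etv4 and Etv5, ETS factors that like Dusp6 follow ERK activity and were singled out after their values were seen, were 1.48-fold and 1.58-fold higher, though bright probe sets of both also gave lower signals, down to -0.15 and -0.36. In conditioned medium none of these 13 was called, beside 0.109% of genes called higher and 0.306% lower, and their median was 0.08. Fos, at 120.0 and 103.5, was below the signal minimum in both media and could not be called there.

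**Figure D3:**
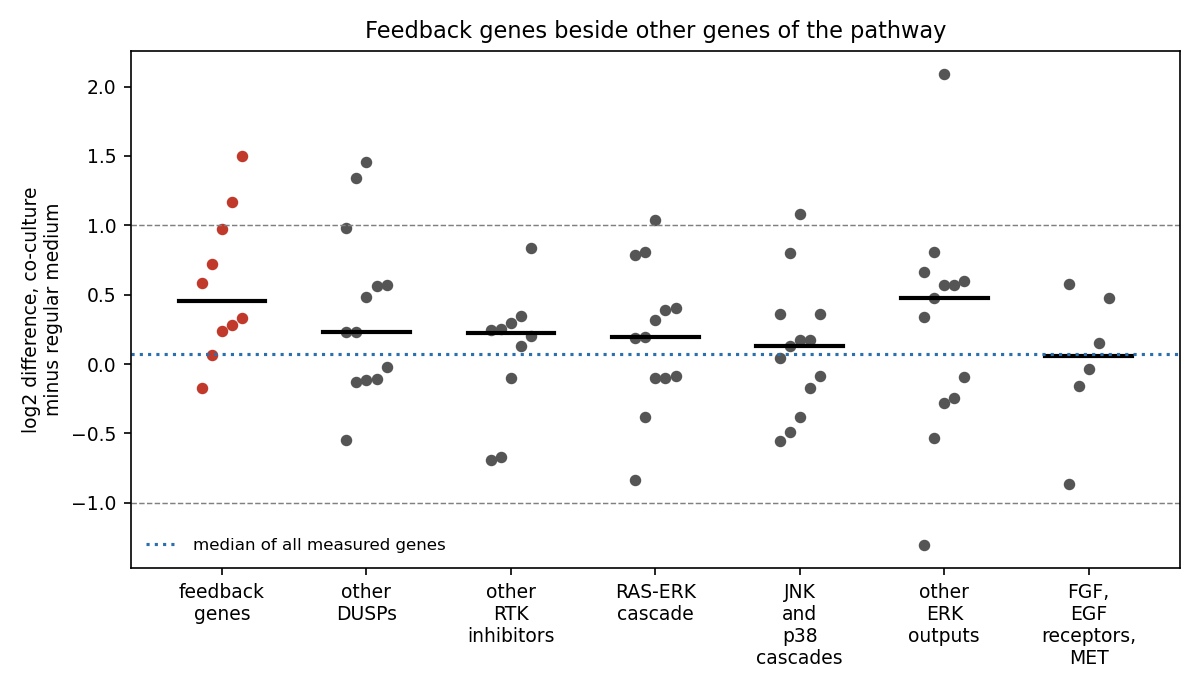
Log2 difference in signal, co-culture minus regular medium, with 1 point per measured gene and a bar at each list's median. The feedback genes have a median of 0.46, the other lists lie between 0.06, for the receptors, and 0.48, the dotted line is the median of all measured genes at 0.07, and dashed lines mark 2-fold.

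By distance in the log2 differences against regular medium, the genes nearest to Spry4, the member with the widest range over the arrays, among 9451 other measured genes were Ly9, Thsd4, Fbxw17, Mfsd6 and Pag1. Their distances were 0.04, 0.08, 0.08, 0.10 and 0.11. Mfsd6 read 2635.5 in co-culture, 1413.5 in conditioned medium and 990.4 in regular medium, far above the floor. These genes were picked for their likeness to the chosen Spry4 probe set, so they say nothing about its own dim signals. The other bright Spry4 probe set did not share the intermediate level in conditioned medium. Likeness over 3 arrays is weak, since it rests on only 2 differences.

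The arrays were also read for the cells they hold. All 8 epithelial markers were bright in every condition, and the keratin Krt8 read 16475.7 in co-culture and 15049.3 in regular medium. Krt14 was the marker called lower in co-culture, at 439.1 against 1217.5. The other 7 had a higher signal in co-culture than in regular medium, as did 56% of all genes compared. The largest of these differences was that of Cldn4, at 1.75-fold. The 8 signals summed to 84235.8 in co-culture, 68454.5 in conditioned medium and 66037.4 in regular medium. The signals of 14 MSC and fibroblast markers summed to 2876.3 in co-culture, 1670.3 in conditioned medium and 1423.5 in regular medium, with 4 of them at or above 149.3 in co-culture, 2 in conditioned medium and 2 in regular medium. Most of each sum came from Postn, at 1802.6 in co-culture, 949.5 in conditioned medium and 765.6 in regular medium. The sums thus mainly follow 1 gene, which was bright in regular medium too. Of the 5 measured, Postn, at 1802.6 against 765.6 in regular medium, and Bgn, at 181.5 against 12.3, were called higher in co-culture. Col1a2, at 188.2 against 101.8, and Pdgfra, at 187.5 against 101.3, were 1.85-fold higher there, and Col6a2, at 126.9 against 191.1, was lower without being called. The other 9 did not reach the minimum, and 5 of the 14, Col1a1, Dcn, Thy1, Mgp and Pdgfrb, were below the floor in co-culture, against 8 in regular medium. The part of MSC RNA in the feedback gene differences was not tested. Contact, isolation and carried-over RNA cannot be told apart in co-culture, nor can fewer cells of a type be told apart from less RNA per cell in a bulk sample.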

How the data were processed

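The authors' deposited values are MAS5 signals, a linear intensity for each probe set, per the submitters' processing notes. Neither their version nor their scaling target is given in the sources used here. RNA was labelled with biotin for the arrays, per the labels' protocols. MAS5 scales each array, and the trimmed means of 498.0, 497.7 and 497.8 for co-culture, conditioned medium and regular medium were nearly equal, so no scaling was added. The number of arrays, 1 per condition, limits the precision.

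The platform annotation gave a single symbol to 34945 of the 45037 probe sets, several to 932 and none to 9160. For 34741 of the probe sets with a single symbol, the symbol was taken from a gene table by gene ID, changed or not. This gave 18193 genes. Folds were taken on floored signals. No test was run, and calls were by size alone, with the procedure tried on simulated arrays. These held less noise than the co-culture scatter given below, and the planted changes were in bright genes. They do not cover signals as dim as those of Spry4 or changes near 2-fold. Alternatives changed the floor, scaling, probe set choice, signal minimum and fold.

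The members and lists were chosen with earlier results of these data known. Named genes were all members, genes of other lists past 2-fold or otherwise 3 of them with the highest mean signal, and the 5 genes nearest to Spry4. Etv4, Etv5, Fgfr3 and the markers named fall outside it. The work was done in Python 3.11.15 with pandas 2.3.3, NumPy 2.4.6 and Matplotlib 3.10.9.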

Additional observations from a re-analysis of the deposited data

How the results depend on the processing

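Scatter is given here as 1 SD of a single probe set's log2 difference, from the spread between probe sets of the same gene, which was 0.33 for both comparisons with co-culture and 0.14 for conditioned medium against regular medium. Of 240 member values under the alternative floors, scalings, probe set choices and signal minimums, 234 moved by less than this SD, 6 moved by more and no called value changed sign. Those 6 were 4 values of Spry4 and 2 of Spred1. Many of the 240 could not move. A changed signal minimum, a lower floor or leaving out _x_at and _s_at probe sets does not alter a member's chosen signals. Sign changes were counted for called values only. Spred1, not called, went from -0.10 to 0.13 in conditioned medium against regular medium with the median over bright probe sets. The log2 difference of Spry4 in co-culture against regular medium ranged from 0.47 to 1.61 and that of Spred1 from 0.01 to 0.43. Dusp4 ranged from 1.12 to 1.17. Against regular medium, 1 feedback gene in place of 2 was past 2-fold in co-culture with the floor at the 60th percentile or the signal minimum at the 80th, where Spry4 was lost because its signals are low. The median was then 0.33 with the stricter minimum, over 7 genes. With a 1.5-fold rule 4 genes passed and with 3-fold 0, both against regular medium and against conditioned medium. Taking the median over bright probe sets gave 2 genes in co-culture against conditioned medium in place of 1, by adding Spry4. In conditioned medium no member passed under any alternative run.

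Over all genes, the 805 calls of co-culture against regular medium became 435 with the stricter minimum, 2512 at 1.5-fold and 222 at 3-fold, and the 788 against conditioned medium became 423, 2509 and 233. The 38 calls of conditioned medium became 3 with the higher floor, 259 without a minimum, 2 with the stricter minimum, 203 at 1.5-fold and 17 at 3-fold. Quantile normalization made 36.6% of those calls higher in place of 26.3%. No paired analysis was possible because each condition has 1 array.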
